A study of Bos taurus and Ovis aries and Capra hircus with 27 samples.

Results

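G protein-coupled receptors are membrane proteins that cross the membrane with a bundle of helices, bind a hormone, transmitter, lipid or chemoattractant on the outside, and activate a heterotrimeric G protein on the inside. In the heart and its vessels they carry the signals of the autonomic nerves, endothelin and angiotensin. In the liver they set glucose release, and on blood and immune cells they steer migration towards chemokines, complement fragments and lipids. Most members of the rhodopsin-like class share a short acidic-arginine-aromatic motif at the inner end of the third helix, written DRY in one-letter amino acids. The goat gene models examined here were chosen by that motif. A model was a member when its deposited protein matched a 17-residue pattern around the DRY-type letters, was 280 to 1200 residues long, lacked the olfactory receptor motif (MA, then Y, F or L, then DR, then Y, F or C) and had no copy suffix on its identifier. Of 22131 goat models in the expression table, 18216 had a protein with a position, 691 of these matched the pattern, and 190 were members. No expression value entered the choice.

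Messenger RNA of 9 goat libraries was used, with 3 libraries each from heart, liver and kidney as labelled. Per the labels, the goats were indigenous animals of about 3 years, and libraries were strand-specific. According to the study's methods the animals were unrelated adult females, so the samples of a tissue are separate animals. Levels are FPKM, fragments per length of transcript and per mapped fragments of the library, so levels of different genes may be set side by side. The summed FPKM of a library ranged from 574638 to 828807, and read depth was unknown because no counts were given.

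The files paired no gene names with the identifiers. The 190 members carried 91 cattle and 91 human protein identifiers and 8 predicted models. They were described instead by 41 short letter patterns that general knowledge gives for receptor classes around the same DRY-type motif. A match describes the letters of a protein and was not checked against any reference protein. By these letters 110 members fell into a class of receptor with a known kind of ligand or group, 35 matched no pattern, and 45 carried letters typical of olfactory receptors although they lacked the olfactory motif of the rule. Of those 45, 32 also had the KAxSTC-type letters that odorant receptors carry in the sixth helix, against 0 of the other 145 members. The label of non-olfactory receptors therefore did not hold for all of the members. The largest classes after that were receptors of peptides (41 members), amines (24), lipids (16), chemoattractants (15) and nucleotides (7).

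The proteins shared features that the rule did not use. After the DRY-type motif, 139 of 190 held the NPxxY letters of the seventh helix and a further 25 held DPxxY, while NPxxY occurred anywhere in 7.2% of all 18216 proteins. The gene span was no longer than the coding length, that is, without room for an intron, in 105 members (55.3%) against 15.4% of all proteins. At least 6 hydrophobic segments were found in 99 members (52.1%) against 4.79% of all proteins. The letters at the motif were DRY in 118, DRF in 21 and ERY in 16. Proteins of members were 293 to 837 residues long with a median of 358, and the nearest proteins under the length limit had 274, 270 and 256 residues. Only 4 members had 2 or fewer hydrophobic segments, among them GOAT_ENSP00000277632 on scaffold 7 (445 residues) and GOAT_ENSBTAP00000002179 on scaffold 1266 (593 residues), so that not every match of the pattern need be a receptor. The same holds for GOAT_ENSP00000236137 on scaffold 32. It had 8 such segments, but its motif letters began only at residue 351 of 430, with neither NPxxY nor DPxxY after them.

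The tissue labels were first examined through proteins recognised by their letters. The phospholamban-type protein, a calcium pump regulator of heart muscle, stood at 2800 to 4038 FPKM in heart, was listed at 0 in liver and lay at 15.1 to 18 in the libraries labelled kidney. The serum albumin-type protein reached 11676 and 9247 FPKM in liver 2 and 3 and was listed at 0 in liver 1, which can be a failed estimate. It was at 63.1, 76.2 and 9.68 in the libraries labelled kidney and at 0.0335 to 0.0668 in heart. The libraries labelled kidney went against their label. A set of 4 proteins that mark lymphocytes, chosen after values had been seen, was high in all 3 of them. These were CD79A of the B cell receptor (122, 73.4 and 45.8 FPKM), CD3 zeta (193, 106 and 119) and CD3 epsilon (181, 89.4 and 103) of the T cell receptor, and the immunoglobulin J chain (7542, 6471 and 1028). The sum of these 4 proteins was 1296 to 8038 FPKM in the libraries labelled kidney, 6.52 to 8.99 in heart and 9.67 to 39.1 in liver. By contrast, a 4628-residue protein with the repeats and tail letters of megalin was at 0.179, 0.00829 and 0.0474 FPKM there. Megalin is the uptake receptor of the kidney tubule. The deposited proteins held none with the letters of aquaporin-2, so its level could not be read in any library. The group is therefore called the libraries labelled kidney throughout, and what tissue they hold was not settled. Heart against liver also rests on them, through the level that set which models were tested and through the shared estimate of the spread. How the heart columns are named also differs from the other columns. The paper also lists the goat heart samples as duplicates of samples held under other records. It says this of no goat liver or kidney sample used here. Neither trait can be told apart from the tissue.

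Few members were abundant. Of the 190, 72 exceeded 0.5 FPKM in at least 3 of the 9 libraries and were tested (37.9%, against 61.6% of all goat models), and 69 were listed at 0 in all 9 libraries (36.3% against 21.9%). The split followed the signature groups. All 15 chemoattractant receptors were tested, as were 11 of 16 lipid receptors, 5 of 7 nucleotide receptors, 9 of 24 amine receptors, 7 of 41 peptide receptors and 22 of the 35 without a signature. Of the 45 olfactory-type members, 1 was tested and 38 were listed at 0 throughout. The peptide receptors below the limit included all melanocortin, tachykinin, orexin and cholecystokinin-type members, classes known mainly from brain, endocrine gland and gut. They also included all vasopressin V1, bradykinin, somatostatin, bombesin and prokineticin-type members, among others.

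**Figure D1:**
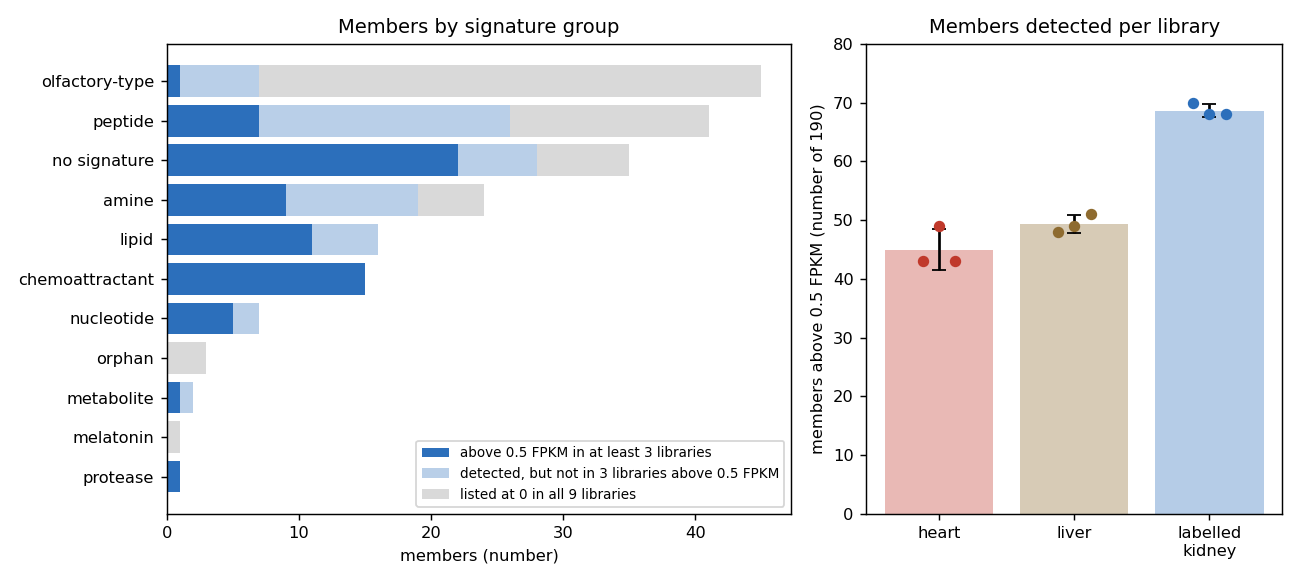
Left, number of members in each signature group, split into those above 0.5 FPKM in at least 3 of 9 libraries (dark), those detected below that limit (light) and those listed at 0 in all libraries (grey). Right, number of the 190 members above 0.5 FPKM in each library (points) with mean and SD (bars): 45 in heart, 49.3 in liver and 68.7 in the libraries labelled kidney.

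The number of members above 0.5 FPKM was 43, 49 and 43 in the heart libraries, 48, 49 and 51 in liver, and 70, 68 and 68 in the libraries labelled kidney. The last group did not overlap with the others, whereas heart (45 ± 3.46, SD, n = 3) and liver (49.3 ± 1.53) overlapped. Over all goat models the corresponding shares were 53.3%, 52.8% and 57.7%, against 23.7%, 26.0% and 36.1% of members. In all 3 libraries of a tissue, 31 members exceeded the level in each of the 3 tissues, 22 in the libraries labelled kidney alone, 4 in heart alone and 1 in liver alone. As shares these were 16.32%, 11.6%, 2.11% and 0.526% of members, against 43.6%, 4.89%, 2.53% and 2.63% of all goat models, so that heart alone was near the share of all models. Summed over the members, FPKM was 352 ± 69.2 in heart, 398 ± 62.8 in liver and 1351 ± 132 in the libraries labelled kidney. With each library divided by its median ratio these sums were 395 ± 37.9, 521 ± 43.3 and 951 ± 81.4.

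The pairwise differences were then tested with limma over all 13634 models above the same level, with Benjamini-Hochberg adjustment at 0.05. Between heart and liver, 24 of the 72 tested members were called, 10 higher in heart and 14 higher in liver, against a background of 49.2% of all models tested (29.6% higher in heart and 19.6% higher in liver). Between heart and the libraries labelled kidney, 54 were called, 7 higher in heart and 47 lower, against 63.2% of all models (17.9% and 45.3%). Between liver and the libraries labelled kidney, 60 were called, 10 higher in liver and 50 lower, against 65% of all models (13.4% and 51.6%). Of the 72, 5 were called in no comparison, and 4 with the replicate number as a block. The median log2 difference of the members was −0.11 for heart minus liver, −1.73 for heart minus labelled kidney and −1.80 for liver minus labelled kidney, on the log2(FPKM + 1) scale. Over all models these medians were 0.10, −0.55 and −0.69. Without the libraries labelled kidney 22 of the 72 members would not have reached the level in 3 libraries, and 5 would not have without heart and 2 without liver. A member tested only through the group where it is high had to differ, so the counts are a description of the members tested.

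The direction of all models depended on scale. When libraries were divided by their median ratio, the median over all models moved from −0.55 to −0.04 for heart minus labelled kidney and from −0.69 to −0.01 for liver minus labelled kidney. Between heart and liver 10 members were then higher in heart and 19 in liver, where all models split 27% to 26.8%. Against the libraries labelled kidney, the members were 10 higher in heart and 42 lower, where all models split 29% to 29.1%, and 13 higher in liver and 43 lower, where all models split 26.6% to 25.3%.

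**Figure D2:**
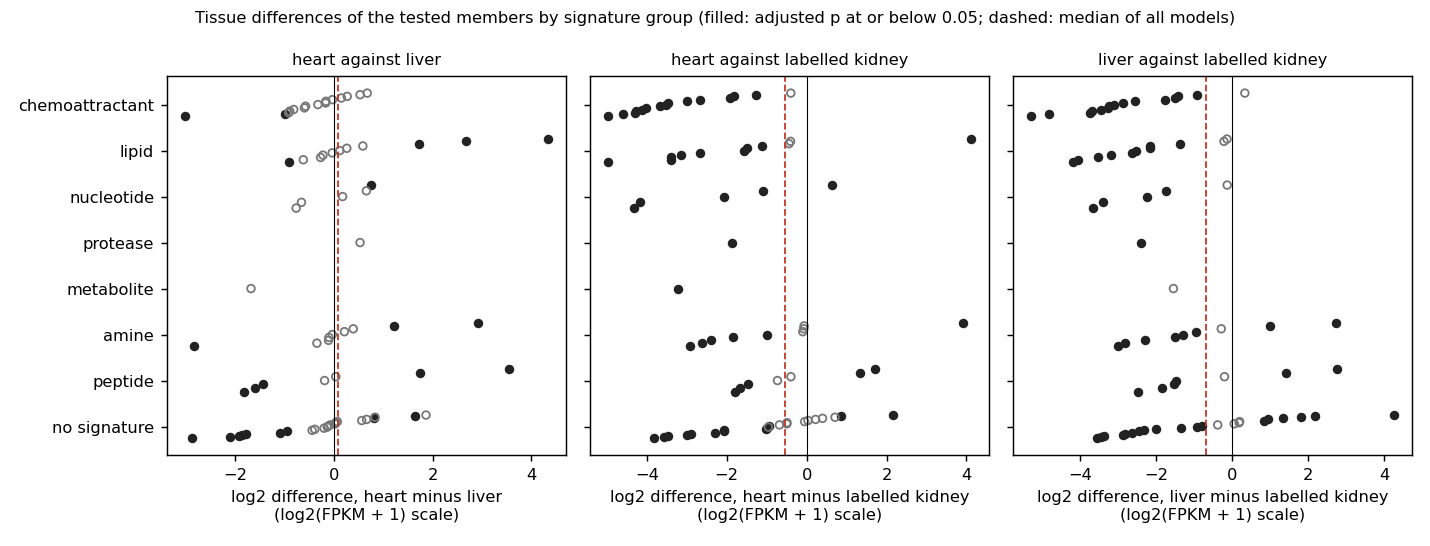
Log2 differences of the tested members in each pairwise comparison, by signature group, with filled points for adjusted p at or below 0.05 (limma) and open points for the others. The dashed line is the median of all 13634 models (0.10, −0.55 and −0.69 from left to right), and most chemoattractant and lipid receptors lie to its left in both comparisons with the libraries labelled kidney, which share those libraries.

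Members higher in 1 tissue than in both others numbered 4 in heart, 9 in liver and 41 in the libraries labelled kidney, against 14.5%, 9.59% and 34.2% of all models tested. With median ratio scaling the counts were 5, 10 and 38, against 19.5%, 15.4% and 16.6%. Of the 4, 9 and 41, 2, 1 and 19 had fewer than 3 of the other 6 libraries above 0.5 FPKM and so were tested only through the group where they are high.

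The 4 heart members were receptors of a lysophospholipid, acetylcholine, endothelin and adenosine. The steepest was GOAT_ENSP00000395389 (scaffold 770, bases 255213 to 309289), with letters of the EDG group, the receptors of sphingosine 1-phosphate and lysophosphatidic acid. It was at 12.9, 31.0 and 24.6 FPKM in heart, at 0, 0.0864 and 0.273 in liver and at 0.0944, 0.255 and 0.582 in the libraries labelled kidney. All heart libraries lay far above the other 6. The log2 difference was 4.34 ± 0.30 (SE) to liver (limma, adjusted p = 2.24e-06) and 4.12 ± 0.30 to the libraries labelled kidney (adjusted p = 3.55e-06). Outside heart only the value of 0.582 exceeded 0.5 FPKM, so the model was tested only through heart and had to be higher there.

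The muscarinic acetylcholine receptor-type member GOAT_ENSBTAP00000019534 (scaffold 1375, bases 236695 to 238092) belongs to the class through which the vagus nerve slows the heart. It was at 14.3, 17.6 and 18.5 FPKM in heart, 0.953, 0.960 and 2.40 in liver and 0.253, 0.229 and 0.0521 in the libraries labelled kidney. The heart exceeded liver by 2.91 ± 0.24 on the log2 scale (adjusted p = 7.99e-06), and liver exceeded the third group by 1.00 ± 0.24 (adjusted p = 0.00513), so that the 3 groups were ordered without overlap. The other 2 muscarinic-type members were not above 0.5 FPKM in 3 libraries.

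Endothelin is a peptide of vessel walls that constricts or relaxes smooth muscle. The 2 members with letters of its receptors had different tissue orders. GOAT_ENSP00000315011 (scaffold 858, bases 1263080 to 1330423) was at 40.6, 30.8 and 40.6 FPKM in heart, 2.37, 2.67 and 1.8 in liver and 7.44, 14.1 and 11.5 in the libraries labelled kidney. GOAT_ENSP00000366416 (scaffold 431, bases 5580604 to 5607922) was at 7.42, 10.1 and 7.08 in heart, 13.2, 28.4 and 34.1 in liver and 4.4, 2.67 and 1.43 in the libraries labelled kidney. The former was higher in heart than in liver by 3.54 ± 0.25 (adjusted p = 2.42e-06), and the latter was higher in liver than in heart by 1.43 ± 0.38 (adjusted p = 0.0122). The values of the 3 tissues did not overlap in either. For the latter, the difference between heart and the libraries labelled kidney (1.32 ± 0.38, adjusted p = 0.0134) lost its call without the third of the latter libraries (1.03, adjusted p = 0.0522).

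The fourth heart member was an adenosine receptor-type model, GOAT_ENSBTAP00000045778 (scaffold 617, bases 323515 to 361092), at a low level of 0.945, 0.541 and 0.756 FPKM in heart and at most 0.200 elsewhere. Its log2 differences were 0.76 ± 0.14 to liver and 0.62 ± 0.14 to the libraries labelled kidney. No library outside heart exceeded 0.5 FPKM, so the model was tested only through heart and had to be higher there. The other adenosine-type members had another order. GOAT_ENSP00000358730 (scaffold 580) stood at 0.193 ± 0.0431 in heart, 0.938 ± 0.601 in liver and 23.2 ± 4.55 in the libraries labelled kidney (SD, n = 3), and GOAT_ENSBTAP00000009974 (scaffold 303) at 7.18 ± 4.60, 3.71 ± 1.02 and 14.9 ± 3.75. The scaffold 580 model was tested only through the libraries labelled kidney, where it is high.

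The 5 members with the highest mean in heart were the EDG-type GOAT_ENSBTAP00000007861 on scaffold 879 (39.1 ± 8.35 FPKM), the endothelin receptor of scaffold 858 (37.3 ± 5.68), the EDG-type member of scaffold 770 (22.8 ± 9.19), GOAT_ENSP00000272928 without a signature on scaffold 790 (22.8 ± 6.90) and the thrombin receptor PAR1-type GOAT_ENSBTAP00000026902 on scaffold 886 (20.7 ± 6.26). The spreads of the first pair overlapped, as did those of the last 3. Of the 6 EDG-type members, all of them tested, 3 were higher in heart than in liver and none was called lower, where 29.6% and 19.6% of all models were called. Besides scaffold 770, these were GOAT_ENSBTAP00000007861, at 29.6, 42.9 and 45 in heart against 7.42, 10.7 and 16.1 in liver (difference 1.73 ± 0.28, adjusted p = 0.000662), and GOAT_ENSBTAP00000012721 (scaffold 356), at 6.79, 11 and 9.28 against 0.468, 0.588 and 0.554 (2.68 ± 0.23, adjusted p = 1.09e-05). Heart and liver did not overlap in any of the 3. In the libraries labelled kidney GOAT_ENSBTAP00000007861 was at 52.8 ± 5.42, not called against heart (limma, adjusted p = 0.193). GOAT_ENSBTAP00000012721 was at 27.2 ± 6.30 there, higher than in heart (1.49 ± 0.23, adjusted p = 0.000441) and than in liver. Receptors of this group act in the lining of vessels and in the heart wall.

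**Figure D3:**
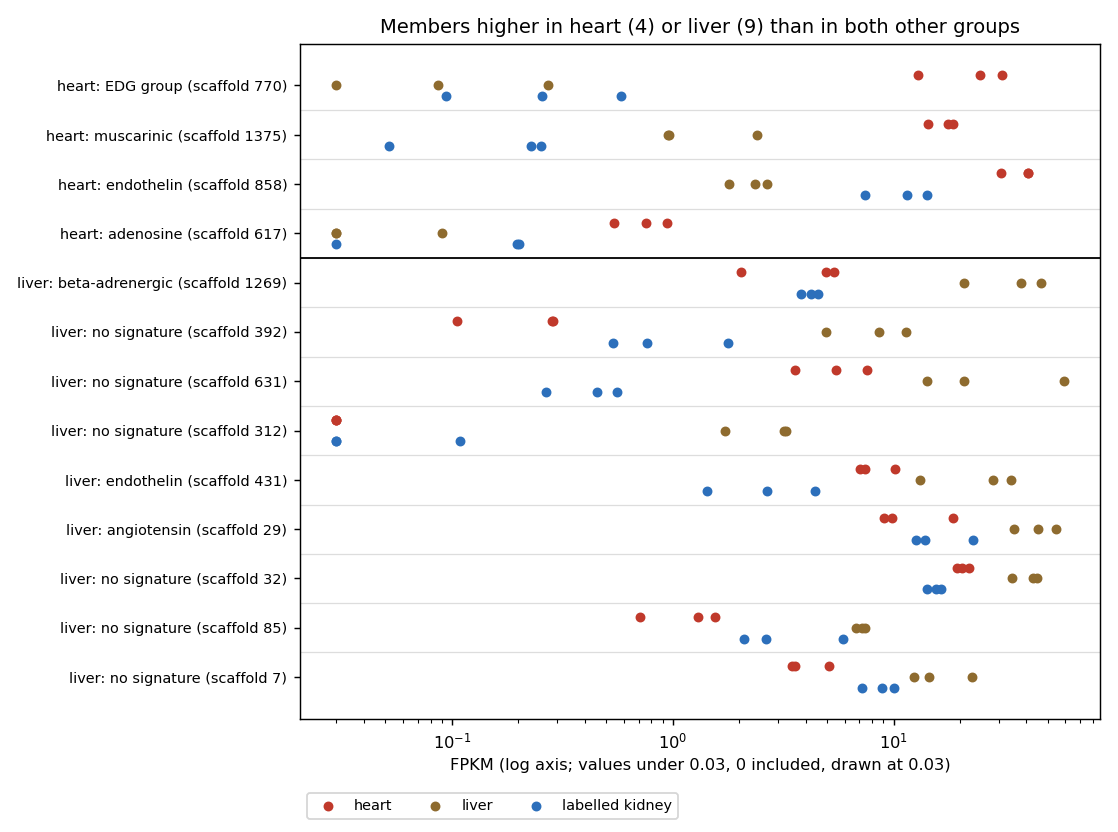
FPKM per library, on a log axis, of the 4 members higher in heart than in both other groups (above the line) and of the 9 higher in liver (below it), with 1 point for each of 9 libraries. In each of these 9 the lowest liver library is above all others, as for the beta-adrenergic receptor-type member at 20.9 to 46.5 FPKM in liver and at most 5.36 elsewhere.

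Among the 9 liver members, the beta-adrenergic receptor-type GOAT_ENSBTAP00000002779 (scaffold 1269, bases 3889181 to 3890437) had the largest margin over both other groups. Receptors of this class answer adrenaline and raise cyclic AMP. It was at 38.0, 46.5 and 20.9 FPKM in liver, 2.03, 4.93 and 5.36 in heart and 4.24, 3.8 and 4.55 in the libraries labelled kidney. The liver libraries lay above all others, by 2.82 ± 0.35 over heart (adjusted p = 0.000122) and 2.73 ± 0.35 over the third group (adjusted p = 0.000133).

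The angiotensin receptor-type GOAT_ENSBTAP00000022540 (scaffold 29, bases 1117920 to 1118999) had the highest mean of all members in liver, 44.9 ± 9.59 FPKM (35.1, 45.3 and 54.3). Angiotensin raises blood pressure through this class of receptor. In heart it was at 9.88, 18.7 and 9.07, and in the libraries labelled kidney at 13.9, 23.0 and 12.6. Liver exceeded both without overlap, by 1.81 ± 0.32 over heart (adjusted p = 0.00125) and 1.41 ± 0.32 over the third group (adjusted p = 0.00384), while the other two groups overlapped.

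The remaining liver members, apart from the endothelin receptor described above, were 6 models without a signature. The highest of them by difference to the libraries labelled kidney was GOAT_ENSP00000384345 (scaffold 631, bases 512823 to 513890), at 20.9, 59.2 and 14.2 FPKM in liver, 3.57, 7.61 and 5.49 in heart and 0.266, 0.556 and 0.455 in the libraries labelled kidney. GOAT_ENSBTAP00000052513 was at 11.4, 8.62 and 4.93 in liver, 0.105, 0.286 and 0.283 in heart and 0.767, 0.537 and 1.77 in the libraries labelled kidney. Of the remaining models, GOAT_ENSP00000327417 was listed at 0 in all heart libraries with 1.72 to 3.25 FPKM in liver. No library outside liver exceeded 0.5 FPKM, so this model was tested only through liver and had to be higher there. In a second, the scaffold 7 model with few hydrophobic segments, the call between liver and the libraries labelled kidney (0.82 ± 0.25, adjusted p = 0.0168) was lost without the first of the latter (0.71, adjusted p = 0.0539). In the model of scaffold 85, the same call (0.93, adjusted p = 0.0205) was lost without liver replicate 2 (adjusted p = 0.0557) and without labelled kidney replicate 2 or 3 (adjusted p = 0.0732 and 0.0772).

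One chemokine receptor-type member was shared by liver and the libraries labelled kidney. GOAT_ENSP00000379273 (scaffold 1283) was at 32, 14 and 36.4 FPKM in liver and 26.6, 22 and 13.5 in the libraries labelled kidney, against 0.276, 6.37 and 2.75 in heart. Its difference between liver and heart was the largest among members higher in liver (3.01 ± 0.60, adjusted p = 0.00254), and liver and the third group overlapped (0.33 ± 0.60, adjusted p = 0.65). It ranked among the 5 highest members of liver (27.4 ± 11.9), together with the angiotensin receptor, a model of scaffold 32 without a signature (40.6 ± 5.33), the beta-adrenergic receptor (35.1 ± 13) and the scaffold 631 model (31.5 ± 24.3). In the scaffold 32 model the match lies late in the protein, as given above, and it need not be a receptor.

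The libraries labelled kidney held the most abundant members. Of the 41 members higher there than in both other groups, 40 had their lowest value in these libraries above the highest of all other libraries. These include the 19 that were tested only through these libraries. By group, these were 13 of 15 chemoattractant receptors, 8 lipid receptors, 4 nucleotide receptors, 5 amine receptors, 2 peptide receptors, the PAR1-type member and 8 without a signature. The lymphocyte proteins given above were likewise higher in these libraries than in heart and liver, and their part in the result was not tested. In bulk tissue, fewer cells of a type and less RNA per cell cannot be told apart.

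Chemoattractant receptors guide blood and immune cells, and this group showed the steepest differences. Of 15 tested, 14 were higher in the libraries labelled kidney than in heart and 14 higher than in liver, and none was lower. Over all models tested, 45.3% and 51.6% were higher there, and 17.9% and 13.4% lower. GOAT_ENSP00000292174 (scaffold 548), GOAT_ENSBTAP00000052953, GOAT_ENSBTAP00000026663 and GOAT_ENSBTAP00000048101 were tested only through these libraries and had to be higher there. The same held for GOAT_ENSBTAP00000003797 and GOAT_ENSP00000362795. Both counts of 14 and the medians below include these models, so they are a description of the members tested. GOAT_ENSP00000326432 also passed the limit only with these libraries. The median log2 difference was −3.53 for heart minus labelled kidney and −3.10 for liver minus labelled kidney, beside −0.55 and −0.69 over all models. Between heart and liver 2 of the 15 were called, both higher in liver, against 49.2% of all models. The median there was −0.32. With the replicate number as a block 4 were called, 3 higher in liver and 1, the chemokine receptor-type model of scaffold 312, higher in heart.

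The member with the highest mean of all was a chemokine receptor-type model, GOAT_ENSP00000386884 (scaffold 312, bases 5451090 to 5452163). It was at 209, 141 and 102 FPKM in the libraries labelled kidney, 6.33, 4.91 and 3.93 in heart and 2.84, 2.67 and 2.70 in liver. The differences were 4.60 ± 0.27 over heart (adjusted p = 9.27e-07) and 5.28 ± 0.27 over liver (adjusted p = 4.04e-07), with no overlap.

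A run of 5 members lay within 384 kb of scaffold 1283 (bases 104061 to 487790), 4 of them with chemokine receptor letters. Chemokine receptor genes are known to lie in clusters in mammals. In order along the scaffold, the libraries labelled kidney gave 3.23 ± 0.461 FPKM for GOAT_ENSBTAP00000041919 (no signature), 25.3 ± 19 for GOAT_ENSBTAP00000026663, 87.3 ± 17.2 for GOAT_ENSBTAP00000025880, 20.7 ± 6.65 for GOAT_ENSP00000379273 and 39.3 ± 25.5 for GOAT_ENSBTAP00000010652. Of the 5, 4 were higher there than in both other tissues, and the exception was the fourth in order, which overlapped with liver. The third, GOAT_ENSBTAP00000025880, was at 81.4, 73.9 and 107 in the libraries labelled kidney against 1.08 to 2.98 in the other 6 libraries, by 4.97 ± 0.28 over heart (adjusted p = 7.76e-07) and 4.81 ± 0.28 over liver (adjusted p = 9.23e-07). The second and the fifth varied widely among replicates, at 46.6, 10.3 and 18.9 and at 18.6, 31.5 and 67.7. Across the genome 11 pairs of tested members lay within 200 kb of each other, leaving the olfactory-type members aside, and in 5 of them both were higher in the libraries labelled kidney than in both other groups. Of these 5 pairs, 3 join the same 3 members of scaffold 1283, and 41 of all 72 tested members were higher there, so the count says nothing particular to neighbours.

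Other chemokine receptor-type members were lower in level. GOAT_ENSBTAP00000052953 (scaffold 1149) was at 17.3, 24.4 and 21.2 FPKM in the libraries labelled kidney and at most 1.39 in the others. GOAT_ENSP00000292174 (scaffold 548) was at 16.7, 8.74 and 7.51 and listed at 0 in 4 of the other 6 libraries. The remaining exception was GOAT_ENSP00000326432 (scaffold 1404), at 2.73, 0.431 and 0.495 in the libraries labelled kidney and 0.744, 0.502 and 0.335 in heart, which overlapped, though it was called higher than in liver (0.93 ± 0.33, adjusted p = 0.0322).

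The 3 members with letters of complement, chemerin and formyl peptide receptors detect complement fragments and bacterial peptides on phagocytes. They were at 69.8 ± 30.0 (scaffold 593, GOAT_ENSBTAP00000026308), 76.6 ± 39.3 (scaffold 550, GOAT_ENSBTAP00000027807) and 34.5 ± 15.5 FPKM (scaffold 1586, GOAT_ENSP00000311733) in the libraries labelled kidney. In heart and liver their means lay between 1.81 and 8.12. All 3 were lowest in the first of the libraries labelled kidney, for example 32.0, 91.3 and 106 for the scaffold 550 model, whereas the lymphocyte proteins were highest in that library.

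**Figure D4:**
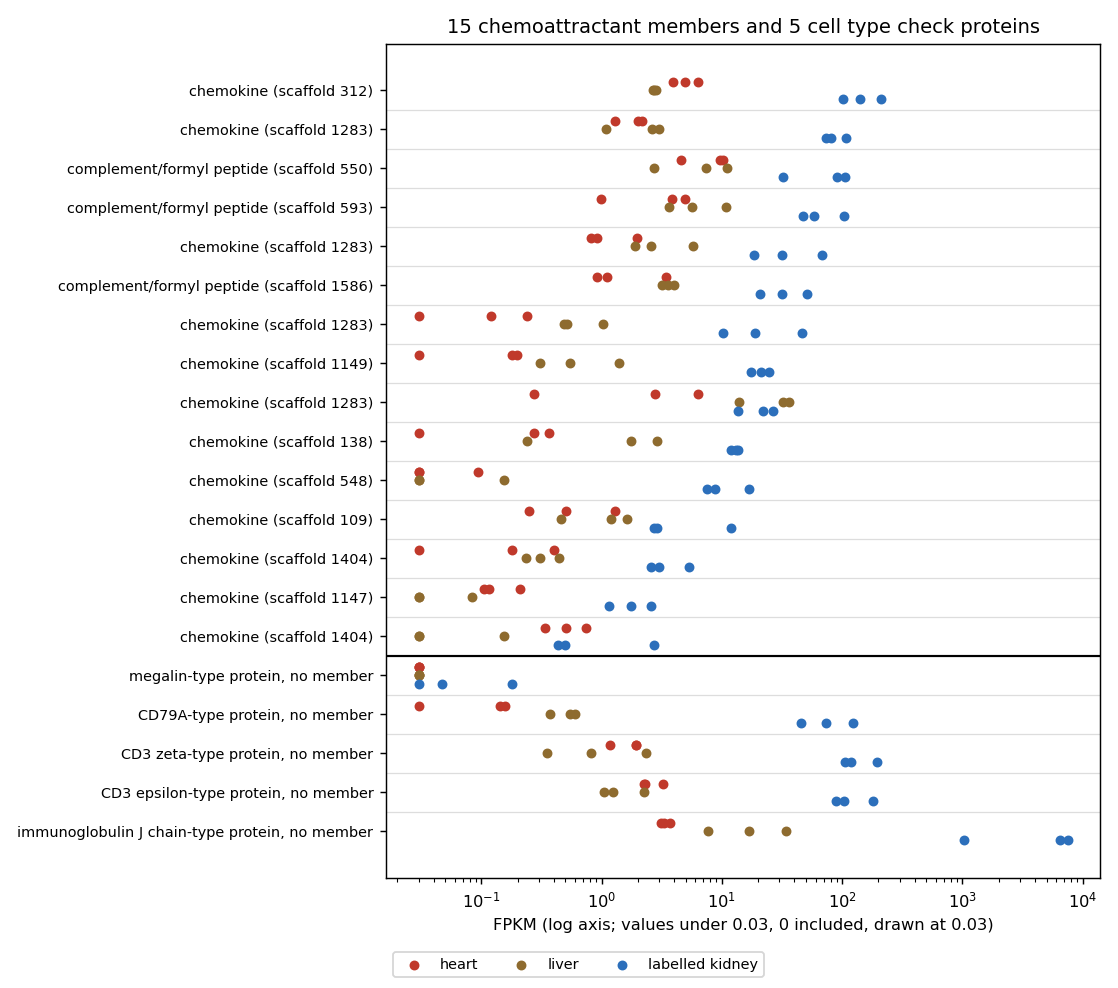
FPKM per library, on a log axis, of the 15 chemoattractant receptor-type members in order of their mean in the libraries labelled kidney, and below the line of 5 proteins that are no members, 1 of kidney tubule and 4 of lymphocytes. The chemokine receptor of scaffold 312 (102 to 209 FPKM) and the CD79A-type protein (45.8 to 122) stand far above heart and liver, while the megalin-type protein reaches at most 0.179.

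Lipid receptors followed. The platelet-activating factor receptor-type GOAT_ENSBTAP00000038567 (scaffold 670, bases 893745 to 894773), a receptor of an inflammatory phospholipid, was at 87.0, 93.2 and 121 FPKM in the libraries labelled kidney, 1.88, 3.30 and 1.70 in heart and 5.10, 3.34 and 7.33 in liver. It exceeded heart by 4.96 ± 0.29 (adjusted p = 8.77e-07) and liver by 4.06 ± 0.29 (adjusted p = 3.06e-06). Liver exceeded heart by 0.91 ± 0.29 (adjusted p = 0.0251), a call that was lost when the libraries labelled kidney were left out of the fit (adjusted p = 0.0502) and without heart replicate 1 or 3 or liver replicate 1 or 3. The cannabinoid receptor-type GOAT_ENSP00000363596 (scaffold 130) was at 10.1, 9.82 and 8.62 FPKM in the libraries labelled kidney, was listed at 0 in heart and reached at most 0.342 in liver. This model was tested only through the libraries labelled kidney and had to be higher there. Both prostanoid receptor-type members tested were higher there too, at 33.2 ± 7.31 and 6.73 ± 1.16 against at most 2.21 on average elsewhere. The lower one, GOAT_ENSBTAP00000002800, was likewise tested only through these libraries.

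Of the nucleotide receptors, the P2Y-type GOAT_ENSP00000320376 (scaffold 285, bases 1561279 to 1562298) was at 21.7, 49.0 and 92.2 FPKM in the libraries labelled kidney, 0.854, 1.28 and 3.35 in heart and 0.937, 2.82 and 11.1 in liver. In each tissue the library numbered 3 was the highest, and the group differences of 4.16 ± 0.70 and 3.40 ± 0.70 were larger than that spread (adjusted p = 0.000689 and 0.00221). The PAR1-type member of scaffold 886, a thrombin receptor, was broadly present, at 13.4, 24.5 and 24.0 in heart, 14.1, 16.0 and 10.9 in liver and 64.6, 84.6 and 78.2 in the libraries labelled kidney. Its lowest library of all 9, at 10.9 FPKM, was exceeded among members only by that of the scaffold 32 model, at 14.2.

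Amine receptors were low outside the members described. In the libraries labelled kidney, the histamine H2-type GOAT_ENSBTAP00000053816 (scaffold 987) was at 11.1, 7.80 and 9.02 FPKM, the serotonin-type GOAT_ENSP00000258400 (scaffold 1113) at 4.54, 6.76 and 10.1, and the alpha-1 adrenergic-type GOAT_ENSP00000306662 (scaffold 323) at 3.84, 8.39 and 4.78. No value of these 3 exceeded 1.19 in heart or liver. The alpha-1 adrenergic-type model was tested only through the libraries labelled kidney. The alpha-2 adrenergic-type GOAT_ENSP00000387281 (scaffold 693) was at 5.08 ± 1.64 in heart, 5.62 ± 3.16 in the libraries labelled kidney and 1.57 ± 0.558 in liver, and was called between heart and liver (1.23 ± 0.35, adjusted p = 0.0158). The Mas-related receptor-type GOAT_ENSP00000403660 (scaffold 182) is of a peptide class named after a receptor of angiotensin fragments. It was also higher in heart (2.38, 2.42 and 3.90) than in liver (0.513, 0 and 0), by 1.74 on the log2 scale. In the libraries labelled kidney it was at 8.35, 2.72 and 6.44. These values exceeded liver (2.47, limma, adjusted p = 0.000224) and overlapped with heart.

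**Figure D5:**
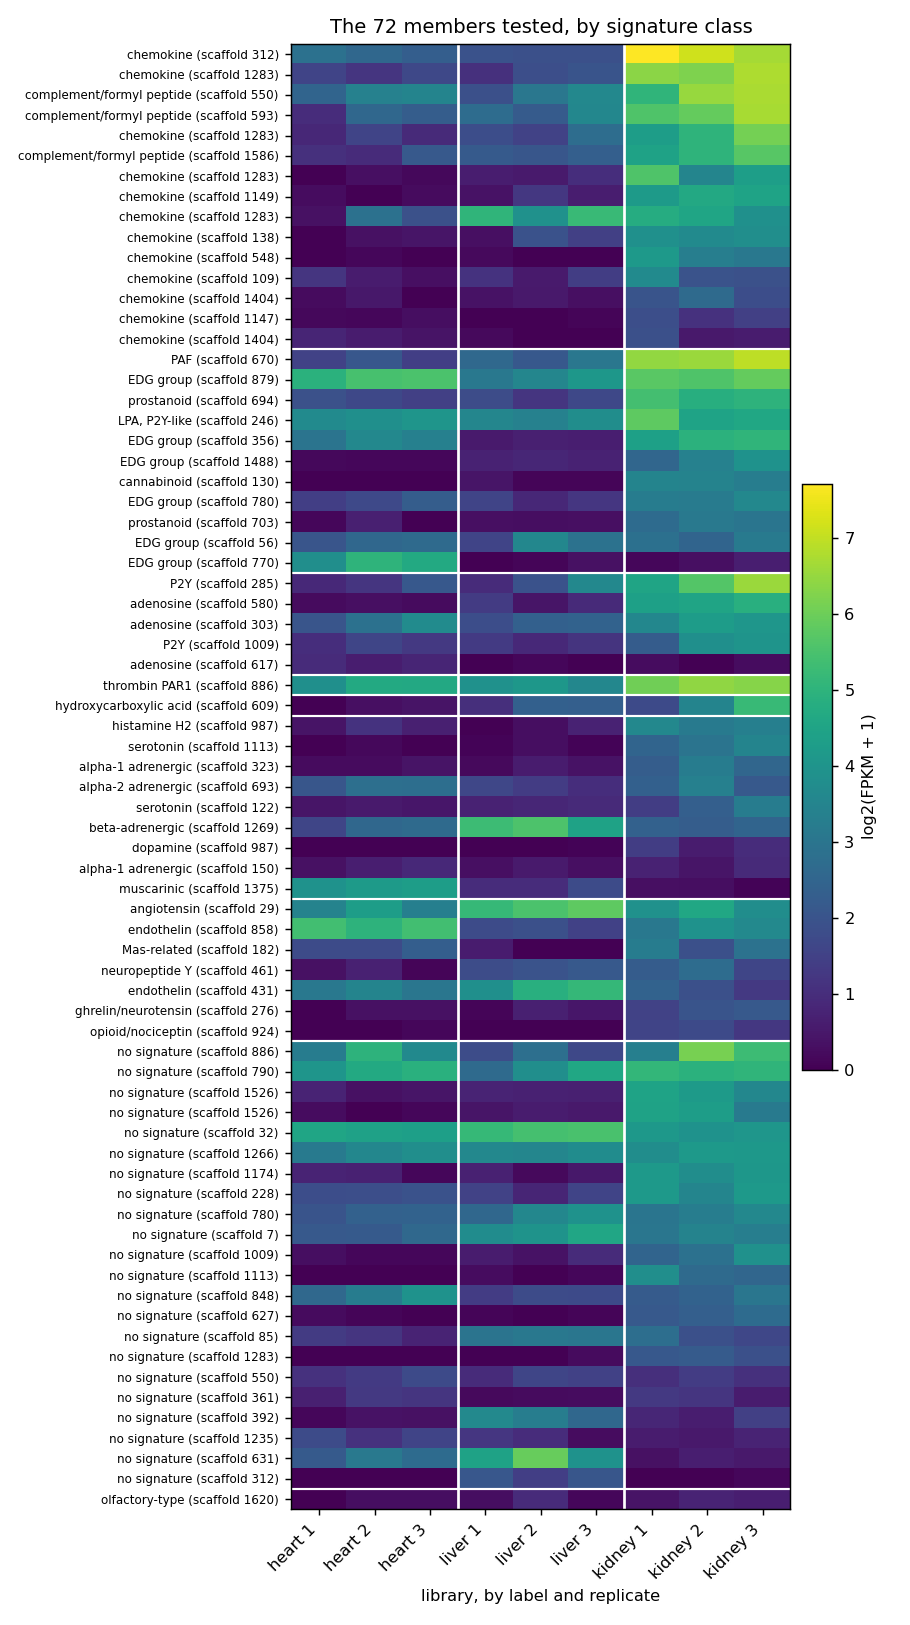
Log2(FPKM + 1) of the 72 tested members in each of 9 libraries, with rows grouped by signature (white lines) and ordered by their mean in the libraries labelled kidney within a group. The chemoattractant and lipid rows are bright in the 3 right-hand columns, up to 209 FPKM, and the beta-adrenergic and angiotensin rows are brightest in liver.

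G proteins pass the receptor signal on, and their alpha subunits were found by letters, 11 models in all, with the family read from the end of the protein. The Gs-type subunit GOAT_ENSP00000360141, which activates adenylyl cyclase, was at 209, 181 and 173 FPKM in heart, 86.7, 52.5 and 80.9 in liver and 127, 105 and 81.7 in the libraries labelled kidney, and heart was higher than liver (1.37 on the log2 scale, adjusted p = 0.00135). A Gi/o-type subunit, GOAT_ENSP00000312999, of the family through which chemoattractant receptors signal, was at 308, 374 and 384 FPKM in the libraries labelled kidney, 41.3, 50.8 and 35.6 in heart and 40.5, 45.3 and 44.7 in liver. Heart and liver overlapped, and the libraries labelled kidney exceeded both (adjusted p = 1.49e-06 and 1.67e-06). A further Gi/o-type model with a copy suffix was at 13.8 ± 4.84 in heart, 40.5 ± 8.11 in liver and 63.3 ± 11.7 in the libraries labelled kidney. Here heart was lower than liver (limma, adjusted p = 0.00178) and than the libraries labelled kidney (adjusted p = 0.000175). Liver and the libraries labelled kidney were not called apart (adjusted p = 0.0805). The Gi/o-type models thus differed in their order. GOAT_ENSBTAP00000044585 was at 4.89 ± 3.30, 8.39 ± 0.594 and 6.05 ± 1.59 in the same groups and was called in no comparison. The remaining Gi/o-type models did not exceed 0.5 FPKM in 3 libraries and were not tested.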

How the data were processed

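For 9 goat libraries the authors deposited log2(FPKM + 1) values, made according to the study's methods with TopHat on the goat genome and with Cufflinks (2.2.1 per the labels). The labels name UMD3.1, a cattle build, for these samples. Positions come from the headers of the deposited protein file, which name no build. The heart columns carry other names than the sample descriptions and were matched by tissue and number. FPKM was obtained by undoing this transformation. Limma 3.58.1 (R 4.3.3) was fitted on log2(FPKM + 1) of models above 0.5 FPKM in at least 3 of 9 libraries, with a mean per tissue, an empirical Bayes trend, and p-values adjusted by Benjamini-Hochberg over all models tested, called at 0.05. A fold change on this scale understates changes of low genes. Without counts, depth and counting error are unknown. The fit was tested on simulated data.

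Same-numbered libraries of different tissues deviated together (Pearson's r of deviations from tissue means over tested models, 0.146 to 0.472 in 9 pairs, against −0.417 to 0.134 for other numbers). Library 1 also had the lowest median ratio in heart (0.774), liver (0.648) and the libraries labelled kidney (1.29). Whether a number stands for an animal or for shared handling was not tested. The p-values printed come from the fit without this pairing. The fit with the replicate number as a block is an alternative.

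Members, lists and tests were chosen with earlier results of these data known, and the class patterns after the files were seen. The members named were the 10 with the largest smaller difference among those higher in a tissue than in both others, the 5 with the largest difference in each direction of a comparison and the 5 highest per tissue. Those without a signature are named in part. Others were named, after their values were seen, as members of a described class. Planned lists by gene symbol (signalling partners, ligand classes, cell type markers and a fixed set of symbols) were not analysed, because identifiers had no names here. Python 3.11.15 was used.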

Additional observations from a re-analysis of the deposited data

How the results depend on the processing

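The 24, 54 and 60 calls (heart against liver, heart against labelled kidney, liver against labelled kidney) and the 4, 9 and 41 members higher in 1 group kept within 1.5 times of these counts under every alternative run, other than the study's filter (above 0.5 FPKM in over 80% of libraries). That filter tested 33 members and left 15, 22 and 28 calls, 1 member higher in heart and 16 higher in the libraries labelled kidney, because fewer members were tested. Leaving out 1 library gave 21 to 28, 51 to 56 and 56 to 60 calls, and 4 to 5, 8 to 9 and 39 to 43 members higher in 1 group. With the replicate block the calls were 30, 57 and 61, which kept every call and added 6, 3 and 1, and 5, 9 and 43 members were higher in 1 group. Fitting heart and liver alone, an alternative added after seeing the data, gave 29 calls, 21 of them shared. Leaving out the olfactory-type members, added likewise, changed none of the calls or of the counts higher in 1 group, and left 71 members tested. The counts above the level, 45 in heart, 49.3 in liver and 68.7 in the libraries labelled kidney, became 70.3, 68.7 and 86.3 at 0.1 FPKM and 37, 38.3 and 62.3 at 1 FPKM. With median ratio scaling they became 53.3 in liver and 64.3 in the libraries labelled kidney, and leaving out 1 library gave 43 to 46, 48.5 to 50 and 68 to 69. Of the differences of single named members, 1236 of the alternative values kept their call, 27 lost it and none changed sign. The alternative that drops olfactory receptors by name was not run, because identifiers had no names here. With 3 libraries a tissue and unknown depth, low members and values listed at 0 remain uncertain, and 3 of the tested members share their identifier with a copy-suffixed model, between which reads could be split.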

Other observations

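Models outside the rule were quieter than the members. Of 104 models with a copy suffix that otherwise met it, 5 exceeded 0.5 FPKM in at least 3 libraries and 95 (91.3%) were listed at 0 in all 9, with 2 above the level in all liver libraries and 5 in all libraries labelled kidney. Of 119 models with the olfactory motif, no copy suffix and a length within the limits, 1 exceeded the level in at least 3 libraries, in liver, and 96 (80.7%) were listed at 0 throughout. The highest value among these 2 sets was 29.2 FPKM, in a model with a copy suffix.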
